A study of Mus musculus with 4 samples.

Results

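The genes described here are 40 genes of the exocrine and endocrine pancreas, followed in RNA of whole mouse liver. They were taken as every non-control probe whose RefSeq transcript belongs to a listed gene. Of the 40 genes, 39 had a probe, out of 23462 gene symbols named on the array, and each rested on 1 probe with 1 spot per array. Try10 had no probe. The list holds 22 digestive enzymes with their cofactor, 10 other secreted or granule products, 4 transcription regulators and 4 islet hormones. They were chosen by the differences in these same array signals, above all between the control and the other arrays, so their values are a description and carry no test.

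Liver RNA of male mice was labelled with Cy5 and read on 4 Agilent 1-colour arrays, 1 array for each group. The control array carried RNA of naturally aged mice, labelled aging control, without a drug. The diabetic array carried RNA of an aging model of type 2 diabetes, the metformin array RNA of that model given metformin, and the combination array RNA of that model given astragalus polysaccharide together with metformin. Metformin lowers blood glucose, and the polysaccharide is prepared from the root of Astragalus. All sample titles carry 60 d, without saying what the time counts from. The sources used here do not give the strain, the age, the doses, how diabetes was induced or whether RNA of several mice shared an array.

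With 1 array per group no difference below has a replicate check, and the number of arrays limits the precision. Signals are the scanner software's background-corrected spot intensities, in arbitrary units. Differences are in log2 after each array was scaled to the 75th percentile of its own probes, which stood at 1560 for control, 1678 for diabetic, 1961 for metformin and 2167 for combination. Where 4 signals of a gene are given in a row, they follow this order. The error after a ± sign comes from the software's own error for the spots and leaves out differences between mice and preparations. Repeated spots of other probes within an array had an SD of 0.07 to 0.08, which combines to 0.11 for a difference between 2 arrays. This SD likewise leaves out differences between arrays, mice and preparations. All 4 arrays shared 1 slide and 1 scan time. All 7 hepatocyte genes with a probe were above background on the first 3 arrays and 6 on the combination array, where the spot of Apoa1 was left out as an outlier. Against control the measured hepatocyte genes differed by medians of -0.32 (diabetic), -0.65 (metformin) and -0.53 (combination). Their medians were -0.33 for metformin minus diabetic, -0.27 for combination minus diabetic and 0.05 for combination minus metformin.

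The exocrine pancreas consists mainly of acinar cells, which make digestive enzymes, store most of the proteases as inactive zymogens in granules and release them into the duct. Acinar genes are switched on by the PTF1 complex, in which the helix-loop-helix factor PTF1A binds an E-box and RBPJL binds a nearby TGGGAA-type box. NR5A2 acts beside it in acinar cells and is also a regulator of bile acid genes in hepatocytes, and BHLHA15, also called MIST1, shapes the secretory apparatus of acinar and other secretory cells. Hepatocytes are not known for making most of these enzymes.

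Promoter sequence is shown for 4 genes because it is a feature that the choice of the list did not use, and because these genes behaved differently on the arrays. Ctrb1 and Cpa1 are enzyme genes that were far apart between arrays, Cela1 is the enzyme gene that differed least from the control array among those measured, and Bhlha15 is a regulator that went the other way on the diabetic array. Each run gives the 250 bases before the RefSeq start site, 5′ to 3′ on the gene's strand, in build GRCm38.p6. Capitals mark CANNTG, the E-box, and TGGGAA on either strand, so that TTCCCA is TGGGAA read on the other strand.
Ctrb1 (chr8:111691011-111691260, minus strand): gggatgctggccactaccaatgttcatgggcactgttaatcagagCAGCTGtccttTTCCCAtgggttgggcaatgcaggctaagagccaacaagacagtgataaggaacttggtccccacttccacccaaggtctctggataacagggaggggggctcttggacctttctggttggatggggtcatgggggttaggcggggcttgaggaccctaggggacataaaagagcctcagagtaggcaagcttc
Cpa1 (chr6:30638968-30639217, plus strand): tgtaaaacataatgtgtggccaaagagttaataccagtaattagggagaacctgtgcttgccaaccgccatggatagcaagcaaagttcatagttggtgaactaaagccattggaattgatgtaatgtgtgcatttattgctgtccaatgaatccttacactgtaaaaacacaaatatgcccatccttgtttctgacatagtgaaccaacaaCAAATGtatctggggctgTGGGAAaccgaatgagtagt
Cela1 (chr15:100687921-100688170, minus strand): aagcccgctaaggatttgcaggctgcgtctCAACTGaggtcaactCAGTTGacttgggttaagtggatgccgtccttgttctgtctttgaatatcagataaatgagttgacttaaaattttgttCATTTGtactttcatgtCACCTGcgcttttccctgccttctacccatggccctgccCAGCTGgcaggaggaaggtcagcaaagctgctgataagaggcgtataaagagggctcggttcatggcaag
Bhlha15 (chr5:144190036-144190285, plus strand): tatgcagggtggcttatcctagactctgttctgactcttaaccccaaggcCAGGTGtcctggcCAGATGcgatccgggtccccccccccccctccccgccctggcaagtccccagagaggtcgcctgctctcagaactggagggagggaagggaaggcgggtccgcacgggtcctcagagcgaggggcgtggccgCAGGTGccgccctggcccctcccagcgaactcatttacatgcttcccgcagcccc
In Ctrb1 the E-box begins 205 bases before the start and the TGGGAA box 194 bases before it, 11 bases apart. In Cpa1 the E-box and the TGGGAA box begin 38 and 20 bases before the start, 18 bases apart. Cela1 and Bhlha15 hold 5 and 3 E-boxes in these bases and 0 TGGGAA boxes. Amy2b and Cpb1, enzyme genes that were also far apart between arrays, likewise have 0 TGGGAA boxes in their promoters. RefSeq promoters, from 250 bases before to 50 after the start, were at hand for 19 of the 22 enzyme genes. TGGGAA lay in 11 of these 19 (57.9%), against 25.6% of all 32851 promoters of that length. An E-box lay in 16 (84.2%, against 72.3%). Both together, with starts 6 to 30 bases apart so that they do not overlap, lay in 5 (26.3%, against 5.96%), and AAGGTCA, the half-site read by NR5A2, in 3 (15.8%, against 4.72%). Genes of the other classes held these letters too. TGGGAA lay in 5 of 7 promoters of the other secreted products (71.4%), 2 of 5 of the regulators and 2 of 3 of the islet hormones (66.7%), and the pair in 2, 1 and 1 of them. Most of the measured other secreted products were lower on the diabetic than on the control array, as the enzymes were. The regulators and islet hormones, which behaved differently, have 5 and 3 promoters. These are too few to tell whether the shares set the enzymes apart. These matches describe letters in a window and say nothing of binding in these livers.

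Most enzyme genes had their highest signal on the control array and were at or near background on the combination array. Above background were 19 of 21 enzyme probes for control, 18 for diabetic, 19 for metformin and 9 for combination. In whole tissue, fewer cells of a type and less RNA per cell cannot be told apart. Pnlip was left out as an outlier on the control array, and Pnlip and Pnliprp1 on the metformin array. Of the 18 enzyme probes above background on the control array with a usable spot on all 4 arrays, 18 ran in the order control, metformin, diabetic, combination from high to low, beside 5.45% of 17820 named probes above background on the control array. For Cela1 the middle step of that order was 0.00 and cannot be told from no difference. For Rnase1 and Pnliprp2 the diabetic and combination arrays were both below background, so their last step has no order, and for Rnase1 it comes from the scaling alone (23 and 24 before scaling). The share over all probes likewise counts signals below background.

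**Figure D1:**
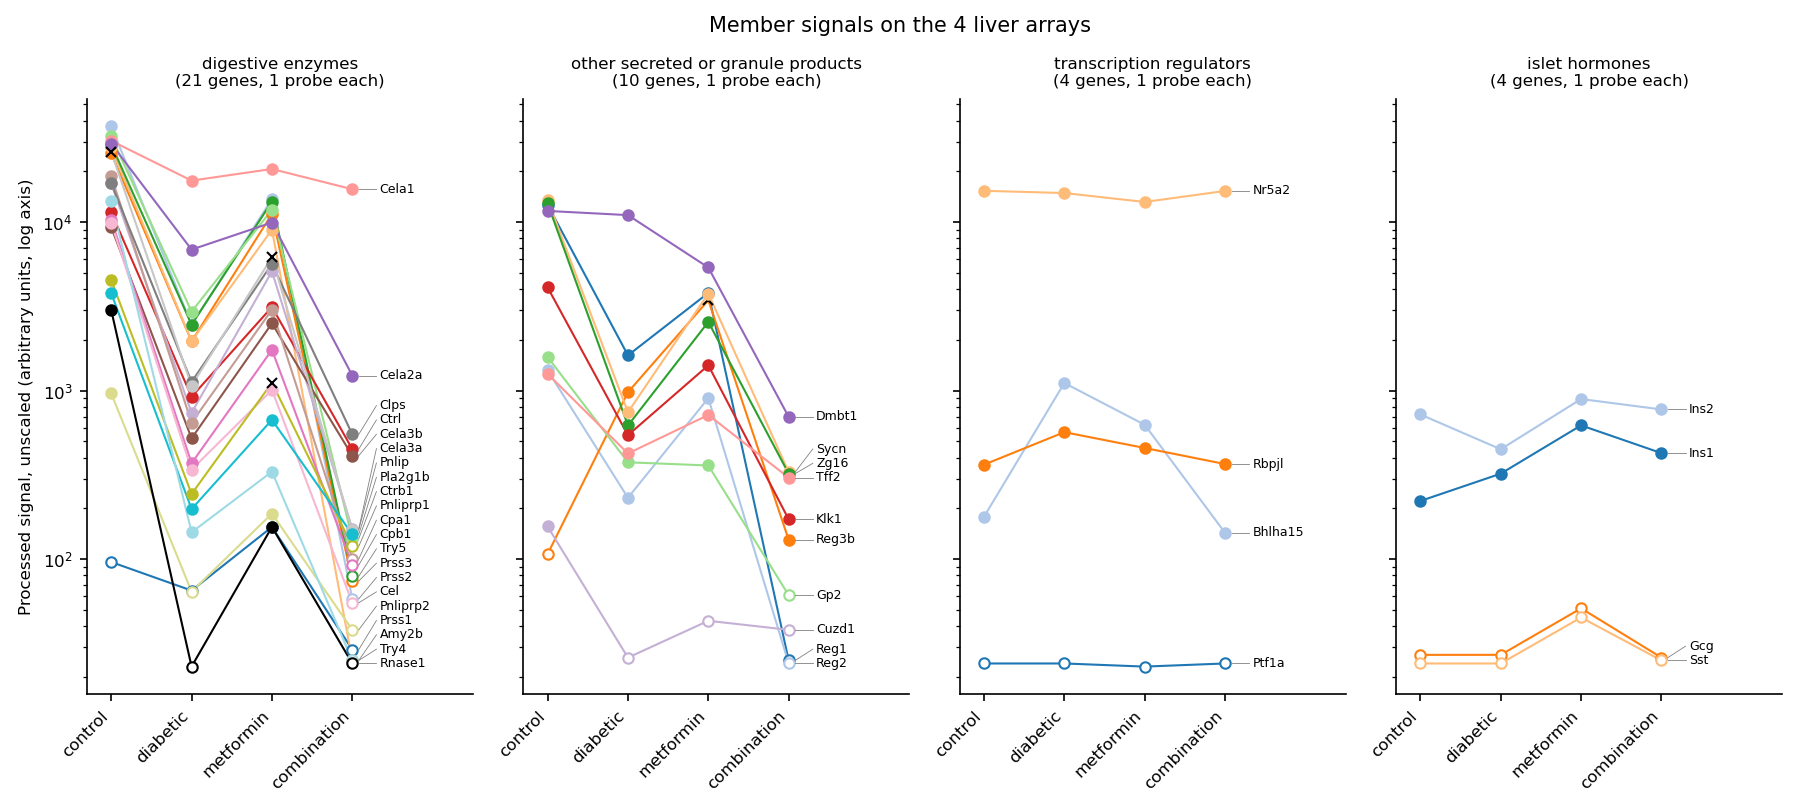
Processed signal of each gene (log axis, arbitrary units, before scaling) on the 4 arrays, by class. Filled points are above background, open points are not, and crosses are spots left out as outliers. Signals of different probes are not comparable with each other. Most enzyme lines run from 3004 or more on the control array to 151 or less on the combination array, while Cela1 stays at 15642 or more and the regulators and islet hormones do not follow.

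The trypsin genes encode the zymogens of the main intestinal protease, and 4 of them gave much the same profile. Prss2 gave signals of 37148, 2454, 13678 and 58, and on the last array it was not above background. Prss3 gave 25623, 1958, 11155 and 74 in the same order, again not above background on the last. The combination array was thus at background for both, and the control array was highest. Try4 gave 27781, 1963, 9003 and 25. Try5 gave 28835, 2460, 13214 and 79. Against the control array these 4 genes differed on the diabetic array by -3.66 to -4.03, each ± 0.16, or 12.6-fold to 16.3-fold lower. Prss1 was different: its signals were 96, 65, 155 and 29, and it was above background on the metformin array alone.

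In the annotation Try4, Try5, Try10 and Prss3 follow each other with 0 coding genes between neighbours, and Prss1 and Prss2 likewise, with 2 coding genes between the 2 runs. Trypsin genes are alike in sequence, and the arrays may split their signal between probes, so the 4 values are uncertain as separate measurements. The same holds for Cela3a and Cela3b, which are also adjacent, for the amylases and for Ins1 and Ins2.

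Chymotrypsin and elastase genes, which encode proteases that cut beside aromatic or small residues, spread over a wide range. Ctrb1, chymotrypsinogen B, gave 32203, 2938, 11815 and 132, above background on each. It was 11.8-fold lower on the diabetic than on the control array (-3.56 ± 0.16), and a further 28.8-fold lower on the combination than on the diabetic array (-4.85 ± 0.31). Ctrl, a chymotrypsin-like protease, gave 11425, 918, 3130 and 449. Its step from the diabetic to the combination array was 2.64-fold, far smaller than that of Ctrb1. Cela3a gave 16963, 737, 5092 and 151, and its neighbour Cela3b gave 9316, 520, 2503 and 410. The 2 elastase 3 genes differed alike from control on the diabetic array (-4.63 ± 0.17 and -4.27 ± 0.18), but from the diabetic to the combination array Cela3a differed by -2.65 ± 0.29 and Cela3b by -0.71 ± 0.20.

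Cela2a and Cela1 stood apart from the other elastases. Cela2a gave 29163, 6856, 9925 and 1227, which is 4.58-fold lower on the diabetic than on the control array. Cela1 gave 30323, 17599, 20623 and 15642, staying bright throughout. Its difference was -0.89 ± 0.16 on the diabetic and -0.89 ± 0.16 on the metformin array against control, and -1.43 ± 0.16 on the combination array. Under other processing the metformin difference ran from -1.08 to -0.60. Cela1 was the 1 measured enzyme gene less than 2-fold apart between the diabetic and control arrays. The promoter of Cela1 printed above is without a TGGGAA box, as are 7 other of the 19 enzyme promoters. Those 7 belong to Amy2b, Cpb1, Cela3b, Pla2g1b, Pnliprp2, Prss3 and Try4. Each of these genes was at least 9.09-fold lower on the diabetic than on the control array.

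Carboxypeptidases, which trim amino acids from the carboxyl end of peptides, were among the enzyme genes furthest apart. Cpa1 gave 18700, 644, 3013 and 100, and Cpb1 gave 10299, 370, 1743 and 92, neither above background on the combination array. Cpa1 was 31.2-fold lower on the diabetic than on the control array (-4.96 ± 0.17), and Cpb1 differed alike (-4.91 ± 0.19). On the combination array Cpa1 was at least 219-fold and Cpb1 at least 120-fold lower than on the control array. Such a bound compares the bright signal with whichever is higher on the dim array, the probe's own signal or the faintest signal of any probe there that is above background.

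Genes of fat digestion followed the proteases. Cel, the bile salt-dependent lipase, gave 9879, 339, 1009 and 55 and was 31.4-fold lower on the diabetic than on the control array (-4.97 ± 0.20). Clps, the colipase that anchors pancreatic lipase to fat droplets, gave 16953, 1125, 5637 and 549. Pla2g1b, the pancreatic phospholipase A2, gave 3777, 198, 670 and 140. All 3 were thus highest on the control array, with the metformin array next. Pnliprp1, a lipase-related protein, gave 4530, 243, 1112 and 119, the third from an outlier spot, and was 20.1-fold lower on the diabetic than on the control array. Pnliprp2 gave 960, 64, 186 and 38 and was above background on the control and metformin arrays.

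Pnlip, the main triglyceride lipase, was marked as an outlier spot on the control and metformin arrays, and so was Pnliprp1 on the metformin array. Their signals there were read but left out of the differences. With outlier spots kept, Pnlip was 28.1-fold lower on the diabetic than on the control array and 222.7-fold lower on the combination array, from signals of 26056, 1068, 6170 and 149. Pnlip, Pnliprp1 and Pnliprp2 are adjacent genes, with 0 coding genes between them. Their lines in the plot of signals run in parallel with those of the proteases.

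Genes of starch and RNA digestion differed most from control on the metformin array among the measured enzyme genes. Amy2b, a pancreatic amylase, gave 13262 on the control array and 144, 330 and 25 on the others. It was 99.1-fold lower on the diabetic (-6.63 ± 0.30) and 50.5-fold lower on the metformin array than on the control array. Rnase1, the pancreatic ribonuclease, gave 3004, 23, 155 and 24, and was at least 28.4-fold lower on the diabetic and 24.4-fold lower on the metformin array. Their metformin differences from control, -5.66 ± 0.19 and -4.61 ± 0.27, were larger than those of the bright trypsins, -1.46 to -1.96. Across the 17 enzyme genes measured on the diabetic and control arrays the differences had an SD of 1.22, several times the error of a single difference.

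Counted over the list, 16 of the 22 enzyme genes were at least 2-fold lower on the diabetic than on the control array and 0 were higher. Among the 13475 genes with a measured difference, 4.42% were at least 2-fold lower and 7.63% higher. A further 2 had bounds of at least 9.09-fold and 28.4-fold lower, Cela1 was 1.85-fold lower, Prss1 was below background on both arrays, Pnlip was an outlier and Try10 had no probe. The median of the 17 measured differences was -4.03 (16.3-fold lower), and that of all measured genes 0.01. The list was drawn up knowing this contrast, so nothing is read from the count.

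The metformin array lay between the diabetic and control arrays. Against the diabetic array 13 of the 22 enzyme genes stood 2-fold or more higher and 0 lower, where 9.67% of 13900 measured genes stood 2-fold or more higher and 3.09% lower. Measured below that mark were Amy2b (0.97 ± 0.32), Cela2a (0.31 ± 0.16) and Cela1 (0.00 ± 0.16). A further 3 genes had bounds of 1.16-fold to 1.40-fold higher, 2 were outliers and 1 had no probe. The median over the 16 measured was 1.99 (3.96-fold), beside -0.05 for all genes. Cela3a was furthest, 5.91-fold higher, and the 4 bright trypsin genes were 3.92-fold to 4.87-fold higher. Against the control array the metformin array was still at least 2-fold lower for 17 of 18 measured enzyme genes, with a median of -2.13, where 3.67% of 13506 genes were at least 2-fold lower and 10.8% higher. These comparisons share arrays, so they are not separate evidence.

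The combination array was lower again. Against the diabetic array 6 of 9 measured enzyme genes were at least 2-fold lower, with a median of -1.40, and 9 more had bounds of 1.56-fold to 26.7-fold lower. Of all 14108 measured genes 9.41% were at least 2-fold lower and 2.25% higher, and their median was -0.20, a shift that the scaling leaves on this array. The other 3 enzyme probes were below background on both arrays. With the bounds set at their value, the median became -2.33. Against the metformin array 7 of 8 measured enzyme genes were at least 2-fold lower, where 13.7% of all 14363 measured genes were at least 2-fold lower and 1.1% higher. Here 11 more had bounds, up to at least 127-fold lower for Prss2, 2 were outliers, and the median of the 8 was -3.05 (8.29-fold). Against the control array 8 of 8 measured enzyme genes were at least 2-fold lower, beside 7.42% of 13845 genes lower and 3.5% higher, and 11 more had bounds of 11.2-fold to 434-fold lower.

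**Figure D2:**
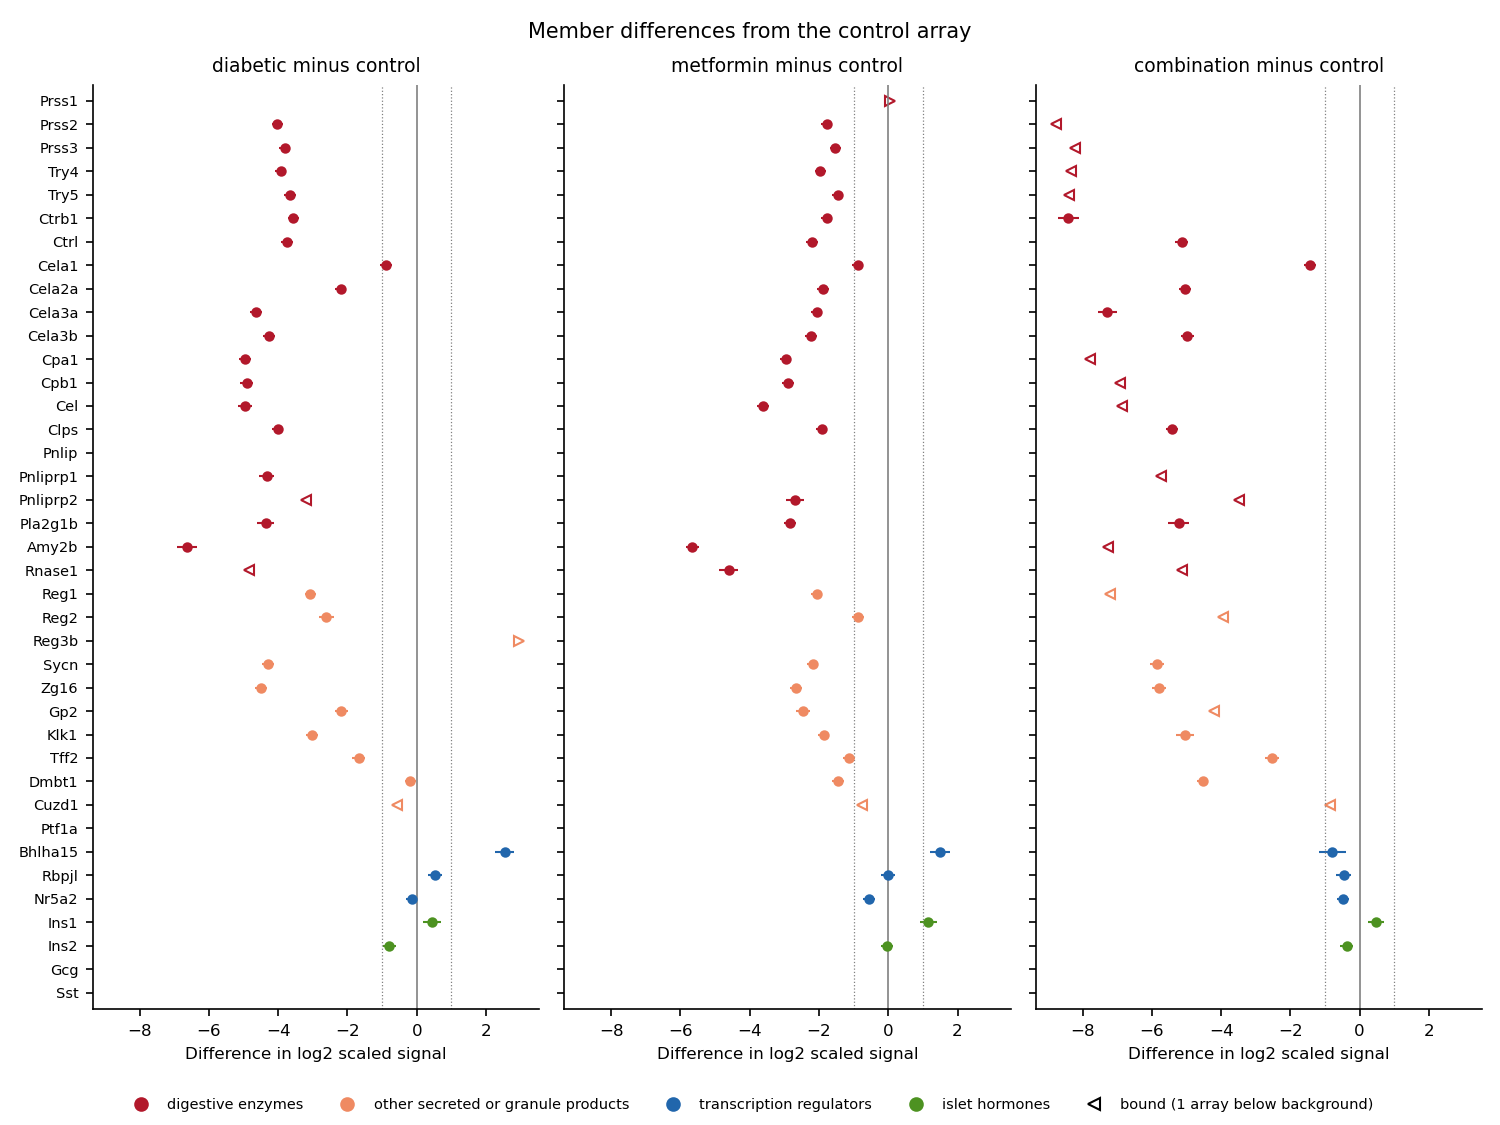
Difference in log2 scaled signal from the control array for each gene, with the software's spot error as bars. Open triangles are bounds where 1 of the 2 arrays was not above background, a missing mark means both were below background, 1 was left out as an outlier or no bound could be set, and dotted lines mark 2-fold. Apart from Prss1, enzymes lie to the left on all 3 arrays and furthest on the combination array, Reg3b and Bhlha15 lie furthest to the right on the diabetic array, and islet hormones stay within 1.16 of 0.

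Among the 10 other secreted or granule products, Sycn and Zg16 went with the enzymes. Of the 9 above background on the control array, 3 did not run in the enzymes' order: Gp2, Dmbt1 and Cuzd1. Cuzd1 was below background on all the other arrays, so its order among them is not resolved. Sycn, syncollin of the granule membrane, gave 13523, 743, 3757 and 328. Zg16, a lectin of the granule matrix, gave 12886, 620, 2553 and 321. They were 19.6-fold and 22.4-fold lower on the diabetic than on the control array, within the range of the enzymes. Klk1, the tissue kallikrein, gave 4091, 543, 1411 and 172, 8.11-fold lower on the diabetic array. Gp2, a granule membrane glycoprotein, gave 1580, 375, 359 and 61, so that the metformin array showed no excess over the diabetic array (-0.29 ± 0.22).

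The Reg genes encode small secreted lectins made by acinar cells and, for some, by injured or inflamed epithelia, and they divided. Reg1 gave 12652, 1616, 3794 and 25, and Reg2 gave 1316, 231, 901 and 24. Both were below background on the combination array, and Reg1 was at least 148-fold lower there than on the control array. Reg3b, an antibacterial lectin and a known acute-phase product of the pancreas, went the other way. It was below background on the control array and gave 977 on the diabetic array, 3433 from an outlier spot on the metformin array and 130 on the combination array. It was at least 7.71-fold higher on the diabetic than on the control array, and with the outlier kept 2.97-fold higher on the metformin than on the diabetic array. Reg1 and Reg2 are neighbours, with 2 coding genes between Reg2 and Reg3b.

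The remaining secreted products varied in their own ways. Dmbt1, a mucosal scavenger receptor protein of ducts and gut, gave 11628, 10984, 5369 and 697. It differed by -0.19 ± 0.16 between the diabetic and control arrays and was 20.4-fold lower on the combination than on the diabetic array. Tff2, a trefoil peptide, gave 1255, 423, 716 and 304, 3.20-fold lower on the diabetic than on the control array. Cuzd1, a zymogen granule membrane protein, gave 156 on the control array and was below background on the other arrays. Over the 10 genes, 7 of the 8 measured on the diabetic and control arrays were at least 2-fold lower on the diabetic array, and their median was -2.82. This stands beside the 4.42% of all measured genes at least 2-fold lower in that comparison. With the bounds of Reg3b, higher, and Cuzd1, lower, the median became -2.40.

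**Figure D3:**
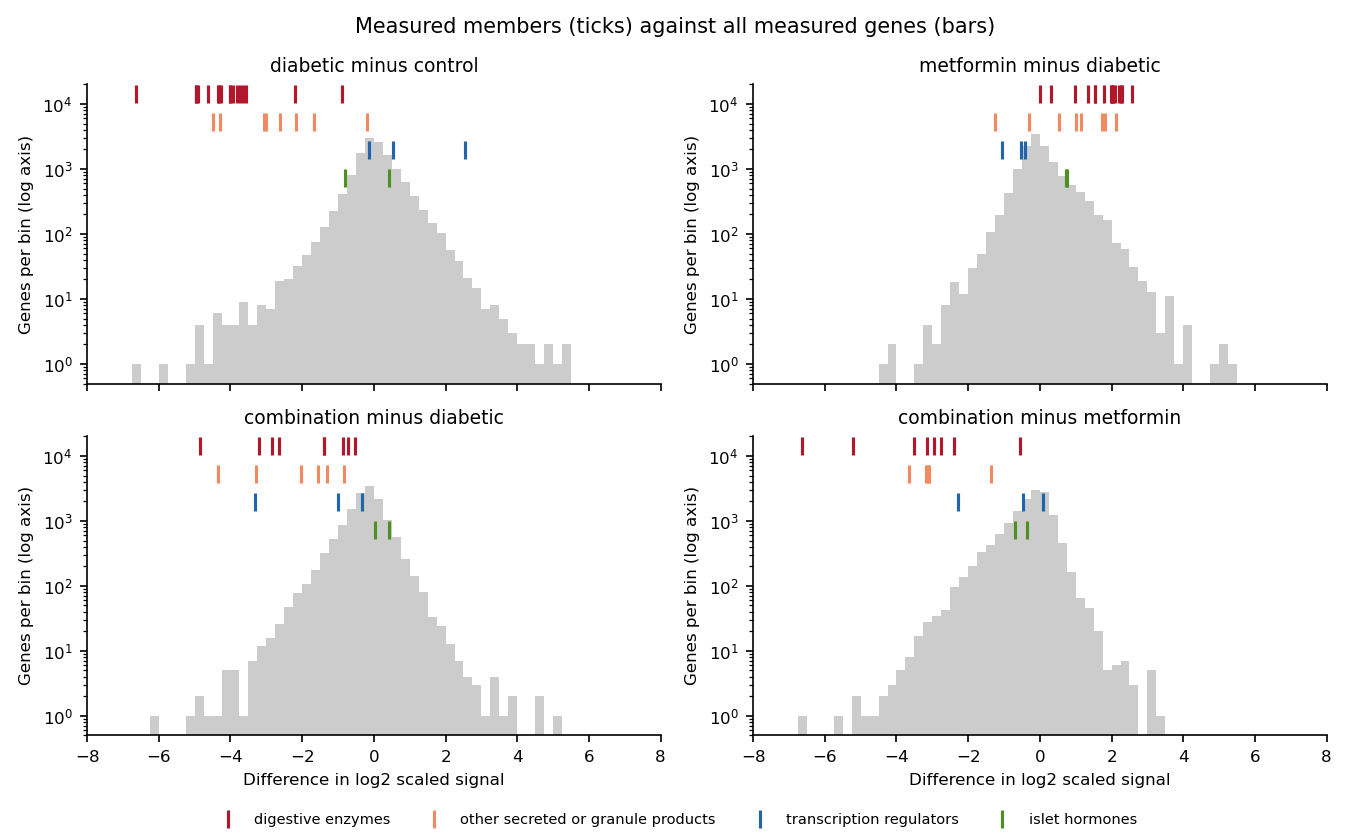
Differences of all measured named genes as bars (genes per bin of 0.25 in log2, log axis) with the measured members as ticks, for 4 comparisons between single arrays. The red enzyme ticks lie between -6.63 and -0.89 for the diabetic array against control and between 0.00 and 2.56 for metformin against diabetic, while ticks of regulators and islet hormones other than Bhlha15 lie within the bulk of all genes.

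The transcription regulators did not run with the enzymes. Ptf1a, the defining factor of acinar cells, gave 24, 24, 23 and 24 and was not above background on any of the 4 arrays. Rbpjl, its partner, gave 363, 566, 456 and 366, with the diabetic array higher than control by 0.54 ± 0.20. Bhlha15 gave 178, 1108, 626 and 143, which is 5.80-fold higher on the diabetic than on the control array (2.54 ± 0.28), where 7.63% of measured genes were at least 2-fold higher. Its difference between the combination and diabetic arrays was -3.32 ± 0.31. On the control array, where the enzymes were brightest, Bhlha15 was thus near its lowest signal. Nr5a2, which hepatocytes express, gave 15314, 14850, 13144 and 15284, within 0.55 of control on each array. Of the 3 regulators above background on the control array, 0 ran in the enzymes' order.

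Islet hormones gave a further contrast. Ins1 gave 221, 321, 621 and 425, and Ins2 gave 721, 448, 890 and 772. Before scaling, the signal of both was highest on the metformin array. After scaling this held for Ins1, while Ins2 was highest on the control array, above the metformin array by less than the spot error. Against control Ins1 differed by 0.44 ± 0.25 on the diabetic array, 1.16 ± 0.23 on the metformin array and 0.47 ± 0.24 on the combination array, and Ins2 by -0.79 ± 0.19, -0.03 ± 0.18 and -0.38 ± 0.18. With normexp background correction the first difference of Ins1 became -0.00, and its metformin difference ran from 0.78 to 1.18 over the alternatives. Gcg, which encodes glucagon, gave 27, 27, 51 and 26, and Sst, which encodes somatostatin, gave 24, 24, 45 and 25. Both were below background on all 4 arrays, and of the 2 insulin genes 0 ran in the enzymes' order.

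Other acinar genes, which are not among the 40, were mixed. Of 23 listed, 19 had a probe under the listed symbol. On the diabetic array, 4 of 11 measured genes were at least 2-fold below control and 1 above, and their median was -0.11. Pdia2, a pancreatic protein disulfide isomerase, gave 1005 on the control array and was below background on the diabetic array. Spink1, a trypsin inhibitor, ran against the enzymes with 1391, 3078, 18261 and 1740. Amy1, an amylase made by liver and salivary gland, stayed flat at 34726, 35317, 33586 and 41282 by 1 probe, and Amy2a5 gave 33077, 12718, 14855 and 20847 by its brighter probe. Aqp8, a water channel that hepatocytes also carry, gave 19587, 16277, 24581 and 14443, and Fkbp11, a folding enzyme of secretory cells, gave 16214, 20128, 18046 and 11338. The other probe of Amy2a5 gave 22700, 13341, 10982 and 14570. Its probes differed by -1.48 and -0.87 on the diabetic array against control. Within the amylases, a steep contrast was thus seen for Amy2b and not for Amy1 or Amy2a5.

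A search without the list asked which other named genes had a 4-array profile nearest to the enzymes' median, by Euclidean distance over the 4 arrays, among 13397 genes above background on the control array. The enzymes themselves lay at a median distance of 1.84 from their own median profile. Among the nearest 10, at distances of 1.33 to 1.89, were 2900060L22Rik, Klk1b5, Ryr3, Olfr550, 2210010C04Rik, Gm12718, Slc10a2, Kcne3 and Gm32872. Klk1b5 belongs to the kallikrein family of Klk1 and gave 7538, 1028, 3018 and 288. The protein-coding gene 2210010C04Rik gave 1335, 24, 198 and 25. Slc10a2, the apical bile acid transporter of ileum and bile duct, gave 14803, 1218, 5319 and 982 by 1 probe and 19405, 2754, 5911 and 948 by the other. The lncRNA Gm32872 gave 16118, 1397, 1588 and 480. Ryr3, a calcium release channel, the olfactory receptor gene Olfr550, the potassium channel subunit gene Kcne3, and the non-coding 2900060L22Rik and Gm12718 were above background on the control and metformin arrays and below it on the other 2. A likeness over 4 arrays is a description, and alone it neither ties these genes to the pancreas nor sets them apart from it.

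Markers of other tissues near the liver or pancreas are given beside these values. Of 8 duct genes, 7 were above background on each array, and Cftr was not on the control array. Their summed signals before scaling, over the 9 of 10 probes without an outlier spot, were 9492, 8318, 12931 and 6297. That sum leaves out Spp1, which gave 9365, 9277, 27367 (an outlier spot) and 14968, nearly as much as or more than the other duct probes together. After scaling, 3 of 7 measured duct genes were at least 2-fold lower on the combination than on the control array, beside 7.42% of all measured genes, and 0 were higher. Against the metformin array 3 of 6 were lower and 0 higher, beside 13.7% lower. Of 7, Epcam alone was at least 2-fold lower on the diabetic than on the control array (2.22-fold), beside 4.42%. It alone of 6 was at least 2-fold higher on the metformin than on the diabetic array (2.31-fold), beside 9.67%. Of 12 islet genes beyond the hormones, 2 were above background on the control array, among them none of Iapp, Chga, Pdx1 and Neurod1, and 7 on the metformin array, with summed signals of 839, 1381, 4039 and 1895. Of 10 small intestine genes, 5 were above background on the control array, with Lct, Sis, Alpi, Muc2 and Cdx2 below it, and summed signals were 105092, 91770, 91236 and 94934. Of 8 stomach genes 2 were above background on the control array, with Gkn1, Pgc, Cblif and Atp4a below it, and summed signals of 900, 1245, 1663 and 1362. None of these 4 lists had its highest sum on the control array except that of small intestine. There Apoa4 (51311, 46857, 43843 and 54304) and Fabp2 (35482, 34603, 36201 and 36077) carry most of the sum. Tff3, next in brightness there, gave 17425, 9179, 8016 and 3234. It was 2.04-fold, 2.73-fold and 7.48-fold lower than control on the diabetic, metformin and combination arrays. Of the 5 measured small intestine genes it alone was at least 2-fold lower in these comparisons, and 0, 2 and 0 were higher.

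Of 7 salivary gland genes, 6 had a probe and 3 were above background on the control array, 1 of them Bhlha15, with summed signals of 929, 1702, 2011 and 1066. Fat genes gave 14399, 16838, 24141 and 11880, with 5 of 6 above background on each array and Plin1 on none. Skeletal muscle genes gave 1798, 2950, 3086 and 3110, with 3 of 5 above background on the control array and Ckm on none. Kidney genes gave 406, 248, 272 and 209, with 1 of 4 above background on the control array and 0 on the others. These sums ran in the enzymes' order, but no difference of a kidney gene could be measured. Lymphocyte genes gave 4917, 1659, 12132 and 3631, with 5 of 8 above background on the control array and Cd79a on none. By measured genes, of these lists that of lymphocytes went the way of the enzymes in 2 steps. On the diabetic array 4 of 5 were at least 2-fold lower than on the control array, beside 4.42% of all measured genes. On the metformin array 4 of 5 were at least 2-fold higher than on the diabetic array, beside 9.67%. From the metformin to the combination array they also went the enzymes' way, with 4 of 5 at least 2-fold lower (median -2.21), beside 13.7%. They did not from the diabetic to the combination array, where 0 of 5 were at least 2-fold lower and 2 were higher, beside 9.41% and 2.25%. Nor did they against control on the metformin array, where 4 of 5 were at least 2-fold higher and 1 lower, beside 10.8% and 3.67%. Nkg7, of cytotoxic lymphocytes, gave 1133, 282, 5366 and 800, and Jchain, of plasma cells, gave 2251, 528, 1232 and 1492. The part of any of these tissues in the enzyme values was not tested.

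**Figure D4:**
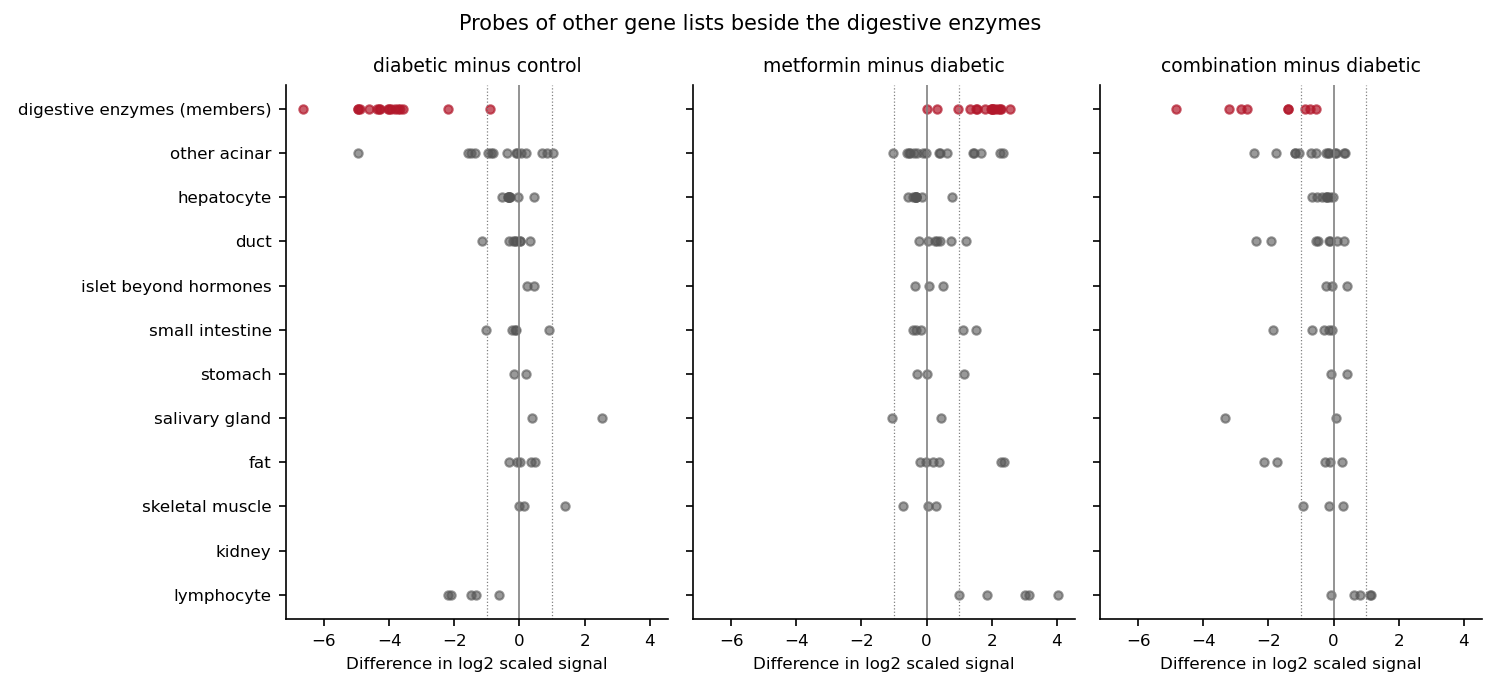
Difference in log2 scaled signal of each measured probe of other gene lists (grey) and of the enzymes (red) for 3 comparisons between single arrays, with dotted lines at 2-fold. Enzyme probes reach -6.63 for the diabetic array against control, where hepatocyte probes lie between -0.53 and 0.46, and lymphocyte probes lie below 0 in that comparison and above 0 for metformin against diabetic.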

How the data were processed

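Scanner files of 4 arrays hold spot intensity values as deposited. Per the file headers the software was Feature Extraction 11.5.1.1, the channel red and the grid built for mm9. Version 10.7 of Agilent Feature Extraction is named in the submitters' processing notes. The processed intensity had been background-corrected by that software, per the file headers. Its flags, deposited as other columns of 0 or 1, were used to drop outlier spots (2.18% to 5.35% per array) and to call a probe above background where at least 50% of its spots were well above it. The authors' deposited value table holds log2 values whose 4 columns share a median of 7.85 and a 75th percentile of 11.1. The sources used here do not give its normalization. It correlated with the log2 processed signal of the same arrays at 0.999 to 1.00 over probes. Across the arrays 29398 to 31980 of 56605 probes were above background, and 0 spots were saturated.

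Log2 signals were scaled to each array's 75th percentile in Python 3.11.15 with numpy 2.4.6 and pandas 2.3.3. The median-signal columns, in place of means, entered normexp (limma 3.58.1, offset 50) for the alternative. Probes were named through RefSeq transcripts of GRCm38.p6 (33767 of 56605 probes, 59.7%). Probes above background on both arrays were averaged per gene. The steps were tested on simulated data. Members and lists were chosen with earlier results of these data known. Promoters are from RefSeq, GRCm38.p6. 7 of the 40 genes have no promoter entry there. Named genes follow a rule: all members, the 10 nearest profiles, and up to 4 members of each other list, those brightest on the control array. Spink1, Pdia2 and the markers named as below background were chosen after their values were seen. Results of some items are not reported here.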

Additional observations from a re-analysis of the deposited data

How the results depend on the processing

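No paired analysis was possible because each group holds 1 array. With 8 alternatives, 0 of the enzyme medians in the 4 comparisons changed sign. The diabetic minus control median of -4.03 became -4.17 with quantile normalization, -3.85 with normexp, -4.25 with outlier spots kept and -3.88 over the 8 enzyme genes above background on all 4 arrays, where the count of 16 became 7 because fewer genes were tested. The metformin minus diabetic median of 1.99 became 1.85 with arrays centred on their median, 1.81 with normexp and 1.66 over genes above background on all 4 arrays, where the count of 13 became 6. The combination minus diabetic median of -1.40 became -1.15 with the 75th percentile over common probes (above background on each array), -1.18 with outlier spots kept, -1.17 with the authors' value table and -2.65 with no background filter, where the count of 6 became 17 of 21. The combination minus metformin median of -3.05 became -2.85 with median centring, -2.88 with the 75th percentile over common probes, -2.91 with normexp, -2.91 with outlier spots kept, -2.86 with the authors' value table and -3.89 with no background filter, where the count of 7 became 18 of 19. Beyond the gene sets that differ by construction, the cause was not tested. Of 146 differences of single genes, 5 changed sign under some alternative (Cela1 metformin minus diabetic, Ins1 diabetic minus control, Ins2 and Rbpjl metformin minus control, and Nr5a2 combination minus metformin), each near 0 or, for Ins1, at 0.44. Another 7 crossed the 2-fold mark: Amy2b, Bhlha15 and Reg1 for metformin minus diabetic, and Cela1, Ins1, Reg2 and Tff2 for metformin minus control. Signal over background limits the combination array, where 12 of 21 enzyme probes have only a bound or none.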
